A study of Mus musculus with 12 samples.

Results

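The genes described here are 6 that encode extracellular matrix proteins and 1 that encodes lysyl oxidase, an enzyme that cross-links the matrix. They were taken by name as Lox, Fn1, Thbs1, Tgfbi, Ccdc80, Vcan and Ecm1, which is 7 of the 31054 genes counted, and all 7 passed the filter on low counts that left 13141 genes to test. Their messenger RNA was measured in wild-type C57BL6 mouse dendritic cells, antigen-presenting cells that had been grown from bone marrow, with live CD11c+ cells enriched on day 7. Tolerogenic cells (TolDC) were treated with vitamin D3 and IL-10, a cytokine that restrains inflammation, and the control cells (BMDC) were not. LPS, the bacterial cell wall component sensed through Toll-like receptor 4, was given or withheld, which made the 4 groups TolDC + LPS, TolDC, BMDC + LPS and BMDC with 3 libraries in each. No source used here gives the doses or durations of vitamin D3, IL-10 and LPS, or the age and sex of the mice.

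The extracellular matrix is the protein and sugar network outside cells, to which cells attach through integrins and other receptors. Fibronectin, encoded by Fn1, and versican, encoded by Vcan, build the provisional matrix of inflamed and healing tissue. Thrombospondin 1 (Thbs1), the TGF-beta-induced protein (Tgfbi) and extracellular matrix protein 1 (Ecm1) bind to the matrix and to cells and act more as regulators than as scaffold. Ccdc80 encodes a secreted protein that binds matrix components. Lysyl oxidase (Lox) oxidises lysine side chains of collagen and elastin, after which the chains become cross-linked. Fibroblasts are the best known source of most of these proteins, but monocytes, macrophages and dendritic cells also make several of them, including fibronectin, thrombospondin 1, versican and the TGF-beta-induced protein.

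The 12 libraries held 21844405 to 41764975 reads assigned to genes, and 3 counts in a library corresponded to 0.0718 to 0.137 CPM, a unit that divides each count by the scaled total of its library. All 10 markers of dendritic cells had counts in every group, led by Cd74. So did all 10 macrophage and all 10 granulocyte markers, so detection alone does not tell these cell types apart. Without LPS, Flt3, Zbtb46, Dpp4, Batf3 and Ccr7 averaged lower in TolDC than in BMDC, with Flt3 at 0.2307 and 0.7724 CPM. H2-Ab1, H2-Aa and Ciita averaged higher in TolDC, and Itgax and Cd74 were near equal. The library numbered 1 of each group stood apart. Its summed level of 10 granulocyte markers was 172 CPM in TolDC + LPS, against 504 and 423 CPM in libraries 2 and 3 of that group, and 745 CPM in BMDC, against 2656 and 2583 CPM in libraries 2 and 3 of BMDC. For 8 mast cell and basophil markers it was 179.2 CPM in TolDC + LPS, against 399.8 and 348.3 CPM, and 30.13 CPM in BMDC, against 113.4 and 114.8 CPM. Markers of megakaryocytes and platelets and of stroma also summed lowest in library 1 of each group. The dendritic cell markers summed highest there in each group, at 12370 CPM in TolDC + LPS, against 10349 and 11097 CPM in libraries 2 and 3. Endothelial markers, mostly Pecam1 and Vwf, also summed highest there. Macrophage markers summed highest in library 1 without LPS and lowest in it with LPS. Of 12 markers of fibroblasts and marrow stroma, Cxcl12 was at 0 in all 12 libraries and Col1a2, Dcn and Lum were at 0 in both groups without LPS. The summed level of those 12 markers was 10.5 to 15.8 CPM in TolDC + LPS, 7.18 to 11.7 CPM in TolDC, 30.7 to 45.9 CPM in BMDC + LPS and 26.3 to 40.8 CPM in BMDC, and most of it was Thy1, which lymphocytes express as well. Nothing in the labels says that libraries of a group came from separate cultures or animals, so p-values measure the spread between these libraries, which may be technical.

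The 7 genes differed widely in level and followed different patterns over the 4 groups. Thbs1 was the most abundant of them in every group on the scale of CPM per kilobase of exon, with means of 432, 45.2, 314.9 and 140.0 CPM per kb in TolDC + LPS, TolDC, BMDC + LPS and BMDC. The second place fell to Ecm1 in TolDC + LPS (19.7 CPM per kb) and in BMDC + LPS (11.2 CPM per kb), to Tgfbi in TolDC (16.5 CPM per kb) and to Ccdc80 in BMDC (11.7 CPM per kb). Fn1 was the lowest of the 7 in both LPS groups, at 0.159 CPM per kb in TolDC + LPS and 0.170 CPM per kb in BMDC + LPS. Lox was the lowest in both groups without LPS, at 0.0162 CPM per kb in TolDC and 0.0121 CPM per kb in BMDC.

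**Figure D1:**
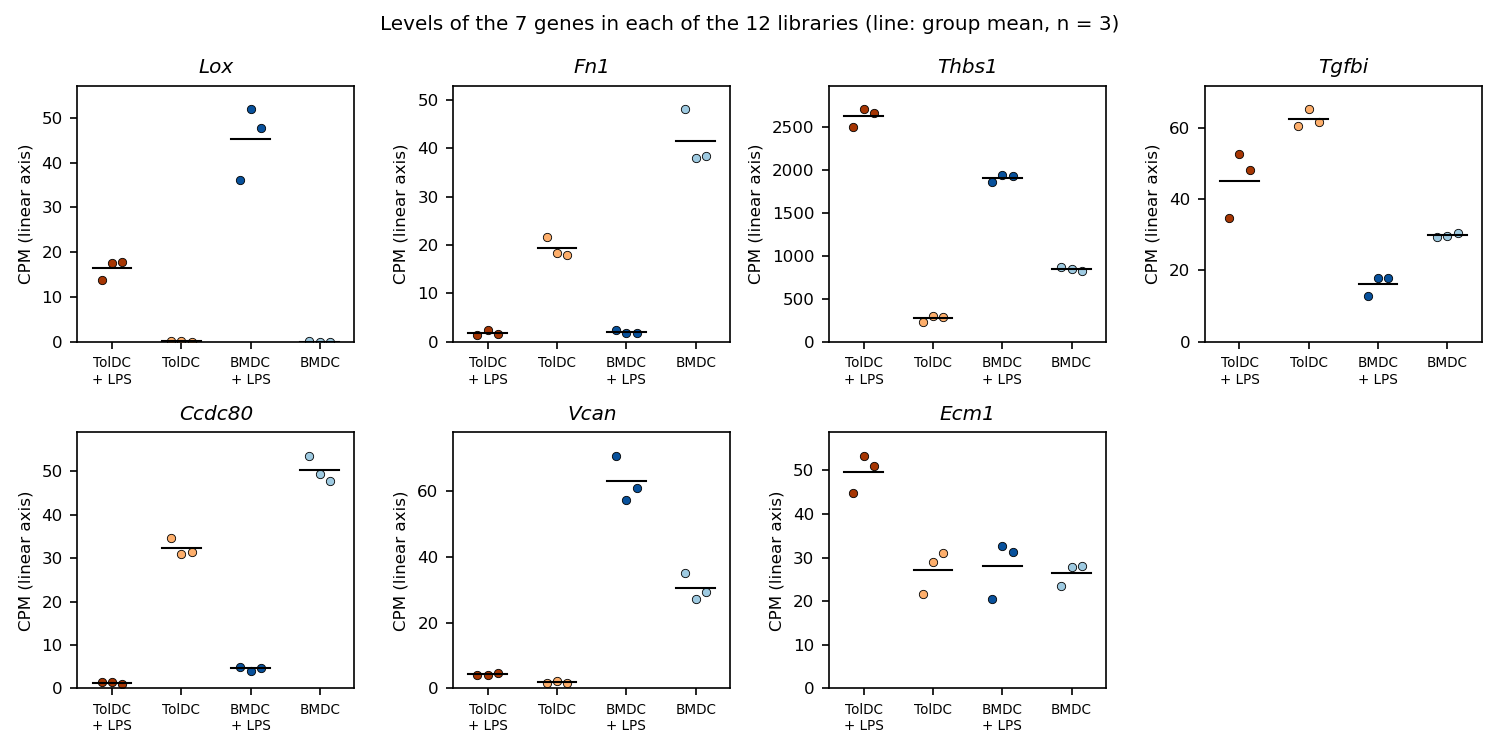
Level of each of the 7 genes in each library, in CPM on linear axes that differ between panels, with points for libraries and lines for group means. Lox is near 0 without LPS, Fn1 and Ccdc80 are low with LPS, Thbs1 is highest in TolDC + LPS at 2501 to 2708 CPM, Vcan is low in both TolDC groups, and Ecm1 is highest in TolDC + LPS.

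Lox was almost undetected without LPS and was induced by LPS in both kinds of cell, to a lower level in TolDC. In TolDC + LPS it was at 13.9, 17.5 and 17.9 CPM (425, 521 and 721 counts), against 2 counts in each of the 3 TolDC libraries. In BMDC + LPS it was at 36.1, 51.9 and 47.7 CPM (1025, 1127 and 1061 counts), against 4, 1 and 0 counts in BMDC. The LPS libraries lay far above the libraries without LPS, with no overlap. In these bulk libraries, fewer cells of a type that carry a transcript and less of it per cell cannot be told apart. Because the unstimulated counts were so few, the change is best given as a ratio of summed counts scaled for depth, with an exact 95% interval that covers counting error only. That ratio was 215 (98.7 to 588) for TolDC + LPS over TolDC and 732 (313 to 2256) for BMDC + LPS over BMDC. The ratio in BMDC was 2401 (431 to 94868) without BMDC library 1, which held 4 of the 5 BMDC counts. The log2 change in edgeR's quasi-likelihood test, with Benjamini-Hochberg adjustment over all genes tested, was 7.66 ± 0.36 (SE) for LPS in TolDC (adjusted p = 1.54e-09) and 9.44 ± 0.32 for LPS in BMDC (7.38e-11).

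Between the LPS-treated groups, Lox averaged 16.4 ± 2.21 CPM in TolDC + LPS and 45.2 ± 8.22 CPM in BMDC + LPS (SD, n = 3 each), a log2 difference of −1.45 ± 0.14 (edgeR adjusted p = 2.3e-06) with no overlap of the libraries. Without LPS, 6 counts in TolDC and 5 in BMDC gave a ratio of 1.27 with an interval of 0.322 to 5.25, so a difference was not detectable at this depth. The difference between the LPS responses, −1.78 ± 1.32, did not pass the test (edgeR adjusted p = 0.311). It was −3.28 without BMDC library 1 (edgeR adjusted p = 0.191) and −3.29 without the 4 libraries numbered 1 (0.0313), both of which leave 1 count in BMDC, and leaving out single libraries gave −3.28 to −1.32.

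The lysyl oxidase family has 5 genes, and its composition under LPS differed between the cells. Loxl2, whose enzyme acts on collagen IV of basement membranes among other substrates, was at 105, 88.8 and 94.9 CPM in TolDC + LPS, against 5.87, 6.37 and 5.36 CPM in TolDC. It was at 1.44, 1.47 and 1.71 CPM in BMDC + LPS, against 0.176, 0.162 and 0.0430 CPM in BMDC. Each TolDC library therefore held more Loxl2 than every BMDC library, with or without LPS. Its log2 difference was 5.97 ± 0.10 for TolDC + LPS over BMDC + LPS (edgeR adjusted p = 7.58e-19) and 5.41 ± 0.22 for TolDC over BMDC (1.94e-13), and the change with LPS was 4.04 ± 0.082 in TolDC (2.5e-18) and 3.48 ± 0.31 in BMDC (7.1e-09).

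Loxl3, another family member that acts on collagen and elastin, ran the other way under LPS. It averaged 2.30 ± 0.397 CPM in TolDC + LPS and 8.99 ± 0.872 CPM in BMDC + LPS (SD, n = 3 each), a log2 difference of −1.96 ± 0.13 (edgeR adjusted p = 2.25e-10), and its LPS response was lower in TolDC than in BMDC by a log2 difference of −1.78 ± 0.23 (4.65e-06). Loxl1 had 0 counts in all 12 libraries, and Loxl4 reached at most 0.645 CPM. Of the family's summed CPM per kb, Loxl2 made up 80.0% to 85.0% and Lox 12.7% to 17.9% in TolDC + LPS. In BMDC + LPS, Lox made up 74.5% to 82.6% and Loxl2 2.07% to 2.64%. Bmp1, the protease that releases active lysyl oxidase from its precursor and was picked for that role, averaged 1.68 ± 0.360 CPM in TolDC + LPS and 0.217 ± 0.0872 CPM in TolDC, and 2.44 ± 0.529 CPM in BMDC + LPS and 0.791 ± 0.359 CPM in BMDC (SD, n = 3 each). It rose with LPS in TolDC by 2.91 ± 0.38 and in BMDC by 1.63 ± 0.29 on the log2 scale (edgeR adjusted p = 1.83e-06 and 6.26e-05).

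**Figure D2:**
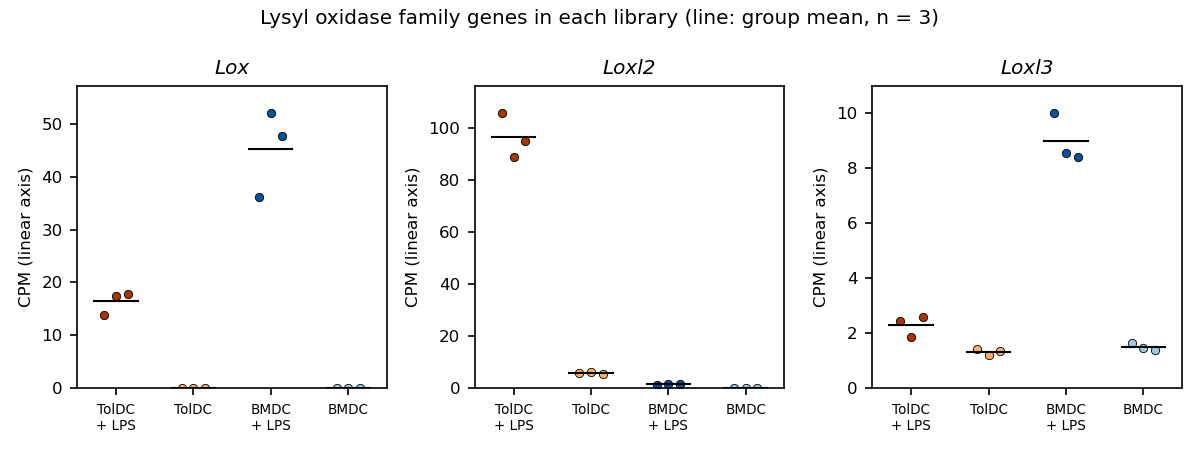
Levels of Lox, Loxl2 and Loxl3 in each library, in CPM on linear axes that differ between panels, with points for libraries and lines for group means. With LPS, Loxl2 is at 88.8 to 105 CPM in TolDC, while Lox is at 36.1 to 51.9 CPM in BMDC and 13.9 to 17.9 CPM in TolDC.

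Thbs1, thrombospondin 1 (chromosome 2, 118111876 to 118127133 of GRCm38, plus strand), had the largest difference between the LPS responses among the 7 genes in the fit to all 12 libraries. In TolDC + LPS it was at 2501, 2708 and 2664 CPM, against 234, 297.0 and 293 CPM in TolDC. In BMDC + LPS it was at 1864, 1946 and 1927 CPM, against 871, 854 and 827 CPM in BMDC. The 4 groups were wholly separate, in the order TolDC + LPS, BMDC + LPS, BMDC and TolDC from high to low, so TolDC held the lowest level without LPS and the highest with it. The change was 9.56-fold in TolDC (log2 3.26 ± 0.077, edgeR adjusted p = 5.35e-14) and 2.25-fold in BMDC (1.17 ± 0.071, 2.14e-09). The difference between these responses was 2.09 ± 0.10 on the log2 scale (edgeR adjusted p = 1.74e-09). TolDC over BMDC gave −1.63 ± 0.072 (1.29e-10), and TolDC + LPS over BMDC + LPS gave 0.46 ± 0.070 (5.27e-05).

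Platelets and their precursors store thrombospondin 1. The summed level of 10 markers of those cells, all of them detected in each group, was 30.5 to 43.9 CPM in TolDC + LPS, 18.8 to 31.0 CPM in TolDC, 19.2 to 31.9 CPM in BMDC + LPS and 14.2 to 19.3 CPM in BMDC. Within that list Pf4 averaged 17 CPM in TolDC + LPS and 8.03 CPM in TolDC, and 6.74 CPM in BMDC + LPS and 4.40 CPM in BMDC. Gp6 averaged 4.84 CPM in TolDC + LPS and 0.320 CPM in TolDC, and 8.24 CPM in BMDC + LPS and 0.290 CPM in BMDC, while Gp1bb and Gp9 reached at most 0.0861 and 0.423 CPM in any library. Itga2b averaged 12.83 CPM in TolDC + LPS and 12.14 CPM in TolDC, and 9.134 CPM in BMDC + LPS and 6.625 CPM in BMDC. Treml1, Ppbp and Gp5 averaged lower with LPS in both kinds of cell. Treml1 was at 1.556 CPM in TolDC + LPS and 3.150 CPM in TolDC, and at 0.5655 CPM in BMDC + LPS and 3.344 CPM in BMDC. The part of these cells in the Thbs1 levels was not tested. Macrophages can make it too, and 10 macrophage markers summed to 1012 to 1157 CPM in TolDC + LPS, 707 to 740.3 CPM in TolDC, 728 to 819.5 CPM in BMDC + LPS and 975 to 1066 CPM in BMDC. These macrophage sums were higher with LPS in TolDC and lower with LPS in BMDC, and their part in the Thbs1 difference was not tested.

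Set against a list of 74 matrix glycoprotein genes, Thbs1 made up most of the transcripts once LPS had been given. Its share of the list's summed CPM per kb was 65.1% to 66.9% in TolDC + LPS, 9.92% to 12.1% in TolDC, 58.7% to 60.1% in BMDC + LPS and 27.2% to 28.5% in BMDC. Thbs1 led the list in all 6 LPS libraries. In the 6 libraries without LPS the leading gene was Spp1 (osteopontin), picked after its values were seen, with 46.6% to 50.1% of the list in TolDC and 28.7% to 29.9% in BMDC. Cd36 and Cd47, which encode receptors of thrombospondin 1, were picked for that role. Cd36 was at 1143 ± 91.8 CPM in TolDC + LPS and 2356 ± 138 CPM in TolDC, and at 1926 ± 265 CPM in BMDC + LPS and 2677 ± 168 CPM in BMDC (SD, n = 3 each), and the log2 change with LPS was −1.04 ± 0.097 in TolDC and −0.47 ± 0.096 in BMDC (edgeR adjusted p = 2.46e-06 and 0.00104). Cd47 rose with LPS in TolDC by 0.42 ± 0.059 (5.82e-06), and in BMDC its log2 change was 0.11 ± 0.059 (0.1).

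Fn1, fibronectin (chromosome 1, 71585520 to 71653200, minus strand), and Ccdc80 (chromosome 16, 45093402 to 45128077, plus strand) both fell with LPS in both kinds of cell. Fn1 was at 1.501, 2.35 and 1.71 CPM in TolDC + LPS, against 21.7, 18.4 and 17.9 CPM in TolDC. It was at 2.46, 1.75 and 1.75 CPM in BMDC + LPS, against 48.1, 38.0 and 38.5 CPM in BMDC. The LPS libraries of both cell types reached the same low range, while the unstimulated TolDC libraries all lay below the unstimulated BMDC libraries. The fall with LPS was 10.5-fold in TolDC (log2 −3.39 ± 0.16, edgeR adjusted p = 2.28e-10) and 20.5-fold in BMDC (−4.36 ± 0.16, 1.26e-11). The difference between these responses was 0.97 ± 0.26 (edgeR adjusted p = 0.00762), positive because the fall was smaller in TolDC. TolDC over BMDC gave −1.10 ± 0.12 (2.29e-06). With LPS the log2 difference was −0.14 ± 0.23 (0.614), and it was 0.18 without the 4 libraries numbered 1 (0.445), so no difference was detectable there.

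Ccdc80 was at 1.40, 1.48 and 0.941 CPM in TolDC + LPS, against 34.6, 31.1 and 31.4 CPM in TolDC. It was at 4.996, 4.06 and 4.72 CPM in BMDC + LPS, against 53.6, 49.4 and 47.8 CPM in BMDC. The 4 groups did not overlap, and TolDC held less than BMDC in both conditions. LPS lowered it 25.9-fold in TolDC (log2 −4.69 ± 0.11, edgeR adjusted p = 3.68e-17) and 10.9-fold in BMDC (−3.44 ± 0.093, 2.15e-16). Here the fall was the larger one in TolDC, with a difference between responses of −1.25 ± 0.16 (edgeR adjusted p = 6.63e-06), opposite in sign to that of Fn1. TolDC + LPS over BMDC + LPS gave −1.89 ± 0.15 (1.54e-09) and TolDC over BMDC −0.64 ± 0.073 (4.8e-07).

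Fibronectin is bound by integrins made of a shared chain with the alpha 5 or alpha V chain. Itga5, the alpha 5 chain, rose while Fn1 fell. It averaged 219 ± 3.29 CPM in TolDC + LPS and 103 ± 2.90 CPM in TolDC, and 329.9 ± 13.4 CPM in BMDC + LPS and 69.9 ± 2.68 CPM in BMDC (SD, n = 3 each). The change with LPS was 1.08 ± 0.041 in TolDC and 2.24 ± 0.043 in BMDC on the log2 scale, and their difference was −1.16 ± 0.058 (edgeR adjusted p = 3.18e-11). Itgav, the alpha V chain, rose by 1.11 ± 0.054 in TolDC and by 1.09 ± 0.053 in BMDC (edgeR adjusted p = 1.02e-12 and 1.03e-12). The shared partner Itgb1 rose less, by 0.15 ± 0.041 in TolDC and by 0.52 ± 0.041 in BMDC (0.0029 and 1.42e-09).

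Vcan, versican (chromosome 13, 89655312 to 89742509, minus strand), was the member that separated TolDC from BMDC most. It was at 4.14, 4.04 and 4.61 CPM in TolDC + LPS, against 1.74, 2.08 and 1.76 CPM in TolDC. In BMDC + LPS it was at 70.7, 57.2 and 60.8 CPM, against 35.1, 27.0 and 29.2 CPM in BMDC. Every TolDC library lay far below every BMDC library, and within each kind of cell the LPS libraries lay above the others. The log2 difference was −3.88 ± 0.11 for TolDC + LPS over BMDC + LPS and −4.03 ± 0.14 for TolDC over BMDC (edgeR adjusted p = 2.03e-13 and 1.99e-12), or 14.7-fold and 16.4-fold lower. The rise with LPS was 1.20 ± 0.17 in TolDC (1.83e-05) and 1.05 ± 0.091 in BMDC (6.01e-08), and the responses did not differ detectably, at 0.16 ± 0.20 (0.569). The summed stroma markers given above also stood lower in TolDC than in BMDC, and their part in the Vcan difference was not tested. Without LPS, Thy1 averaged 8.06 CPM in TolDC and 33.1 CPM in BMDC, Col6a3 0.627 and 1.48 CPM, and Lepr 0.428 and 0.848 CPM in those groups, while Col1a1 averaged 0.383 CPM in TolDC and 0.136 CPM in BMDC and Col1a2, Dcn, Lum and Cxcl12 were at 0 in both. Pdgfrb, of the same list, averaged 0.4124 CPM in TolDC and 0.3877 CPM in BMDC. With LPS it was at 4.827 CPM in TolDC + LPS and 5.666 CPM in BMDC + LPS. Cd44, a hyaluronan receptor picked because versican binds hyaluronan, was slightly lower in TolDC in both conditions. It averaged 371 ± 12.3 CPM in TolDC + LPS and 423 ± 4.02 CPM in BMDC + LPS (SD, n = 3 each; log2 −0.19 ± 0.036, edgeR adjusted p = 0.000131), and TolDC over BMDC gave −0.12 ± 0.036 (0.00873).

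Tgfbi, the TGF-beta-induced protein (chromosome 13, 56609523 to 56639562, plus strand), had the opposite order to Vcan. It was at 34.8, 52.7 and 48.1 CPM in TolDC + LPS, against 60.6, 65.1 and 61.5 CPM in TolDC. It was at 12.8, 17.9 and 18.0 CPM in BMDC + LPS, against 29.4, 29.5 and 30.6 CPM in BMDC. All TolDC libraries exceeded all BMDC libraries, and the LPS libraries were the lower ones in each kind of cell. TolDC + LPS over BMDC + LPS gave a log2 difference of 1.49 ± 0.17 (edgeR adjusted p = 3.72e-05) and TolDC over BMDC gave 1.06 ± 0.16 (0.000256). LPS changed it by −0.46 ± 0.15 in TolDC (0.0193) and by −0.89 ± 0.18 in BMDC (0.00131). The change in TolDC missed the threshold when only the groups compared were fitted (adjusted p = 0.0714) and without TolDC library 2 (0.056). The difference between the responses was 0.43 ± 0.23 (0.171), and 0.41 without the 4 libraries numbered 1 (2.75e-05). Library 1 was the lowest of its group for Tgfbi in each of the 4 groups, by little in TolDC and BMDC.

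Ecm1, extracellular matrix protein 1 (chromosome 3, 95734147 to 95739569, minus strand), stood out in 1 group. It was at 44.8, 53.4 and 51.0 CPM in TolDC + LPS, against 21.6, 28.9 and 31.1 CPM in TolDC. It was at 20.6, 32.6 and 31.2 CPM in BMDC + LPS, against 23.4, 27.8 and 28.02 CPM in BMDC. The TolDC + LPS libraries lay above the other 9, which overlapped each other. LPS raised it in TolDC by 0.87 ± 0.19 on the log2 scale (edgeR adjusted p = 0.0025), and TolDC + LPS over BMDC + LPS gave 0.83 ± 0.19 (0.0035). In BMDC the log2 change with LPS was 0.08 ± 0.20 (0.733), and 0.19 without the 4 libraries numbered 1 (0.00316). TolDC over BMDC gave 0.05 ± 0.20 (0.85). The difference between the LPS responses was 0.79 ± 0.27 (0.043), and this call was lost in 7 of 19 alternatives, with adjusted p up to 0.0913. For Ecm1, as for Tgfbi, the library numbered 1 was the lowest of its group in all 4 groups. The part of its low granulocyte, mast cell, platelet and stroma markers in that was not tested.

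The region before the transcription start is shown for Vcan and Tgfbi, which had opposite orders over the groups, and for Ecm1, which was raised in TolDC + LPS. Each line gives the 250 bases upstream of the RefSeq start in GRCm38.p6, 5′ to 3′ on the gene's strand, at chr13:89742513-89742762 (minus strand), chr13:56609336-56609585 (plus strand) and chr3:95739570-95739819 (minus strand). GENCODE M21 places the start of Tgfbi inside its window. Capitals mark matches, on either strand, to motifs described after the sequences.
Vcan: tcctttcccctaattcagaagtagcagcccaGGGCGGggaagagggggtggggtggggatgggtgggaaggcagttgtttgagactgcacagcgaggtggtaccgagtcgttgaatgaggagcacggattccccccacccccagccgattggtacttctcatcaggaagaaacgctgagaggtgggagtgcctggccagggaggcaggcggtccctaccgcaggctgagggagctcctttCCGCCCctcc
Tgfbi: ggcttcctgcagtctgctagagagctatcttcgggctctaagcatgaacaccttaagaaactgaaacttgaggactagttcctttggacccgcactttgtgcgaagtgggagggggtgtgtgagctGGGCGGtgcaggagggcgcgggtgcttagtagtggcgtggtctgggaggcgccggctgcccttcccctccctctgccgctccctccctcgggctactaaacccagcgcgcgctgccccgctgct
Ecm1: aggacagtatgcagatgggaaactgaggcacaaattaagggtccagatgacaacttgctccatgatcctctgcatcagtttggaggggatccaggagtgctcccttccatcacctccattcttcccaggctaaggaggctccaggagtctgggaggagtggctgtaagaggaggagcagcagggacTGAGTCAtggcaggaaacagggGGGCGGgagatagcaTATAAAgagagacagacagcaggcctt
The motifs searched on both strands were the AP-1 motif TGANTCA, the cyclic AMP response element TGACGTCA, the GC box GGGCGG, the TATA box TATAAA, and, by name, the NF-kB and vitamin D receptor (DR3) motifs. Vcan held 2 GC boxes, the farther of them 219 bases before the start, and Tgfbi held 1 at 124 bases. At least 1 GC box, at any position, was in 32.7% of 32851 promoters of the same length. Ecm1 held an AP-1 motif 64 bases, a GC box 42 bases and a TATA box 27 bases before its start. The AP-1 motif was at any position in 6.75% and the TATA box in 12.4% of those promoters. The cyclic AMP, NF-kB and DR3 letters were in none of the 3 windows, which says nothing about the factors. GC content was 62.4% for Vcan and for Tgfbi and 54.0% for Ecm1, against a median of 52.4% over all those promoters.

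Counted over the 7 genes, LPS in TolDC raised 4 and lowered 3, where 71.3% of all genes tested were called, 35.4% higher and 35.9% lower. LPS in BMDC raised 3 and lowered 3, with Ecm1 not called, where 73.2% of all genes were called, 36.7% higher and 36.4% lower. TolDC + LPS over BMDC + LPS had 3 higher (Thbs1, Tgfbi and Ecm1) and 3 lower (Lox, Ccdc80 and Vcan), where 67.9% of all genes were called, 34.3% higher and 33.7% lower. TolDC over BMDC had 1 higher (Tgfbi) and 4 lower (Fn1, Thbs1, Ccdc80 and Vcan), where 62.4% of all genes were called, 32.0% higher and 30.4% lower. The difference between the LPS responses was called for 4 of the 7, positive for Fn1, Thbs1 and Ecm1 and negative for Ccdc80, where 44.4% of all genes were called, 20.4% positive and 24.0% negative. The libraries of the groups compared did not overlap for 7 genes with LPS in TolDC (75.6% of all genes), 6 with LPS in BMDC (74.8%), 6 in TolDC + LPS against BMDC + LPS (71.4%) and 5 in TolDC against BMDC (66.9%). Against shares this high over all genes, the counts by themselves set the 7 genes little apart. The median log2 change of the 7 genes was 0.87 for LPS in TolDC, 0.08 for LPS in BMDC, −0.14 for TolDC + LPS over BMDC + LPS, −0.64 for TolDC over BMDC and 0.43 for the difference between responses, where the medians of all genes tested lay between −0.010 and 0.024. Each median of the 7 is the value of 1 gene, that of Ecm1 for both LPS changes. The 7 genes moved in both directions, so these medians do not stand for a shift of the set. Leaving out the 4 libraries numbered 1 changed no other call than those given above for Ecm1, Lox and Tgfbi.

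**Figure D3:**
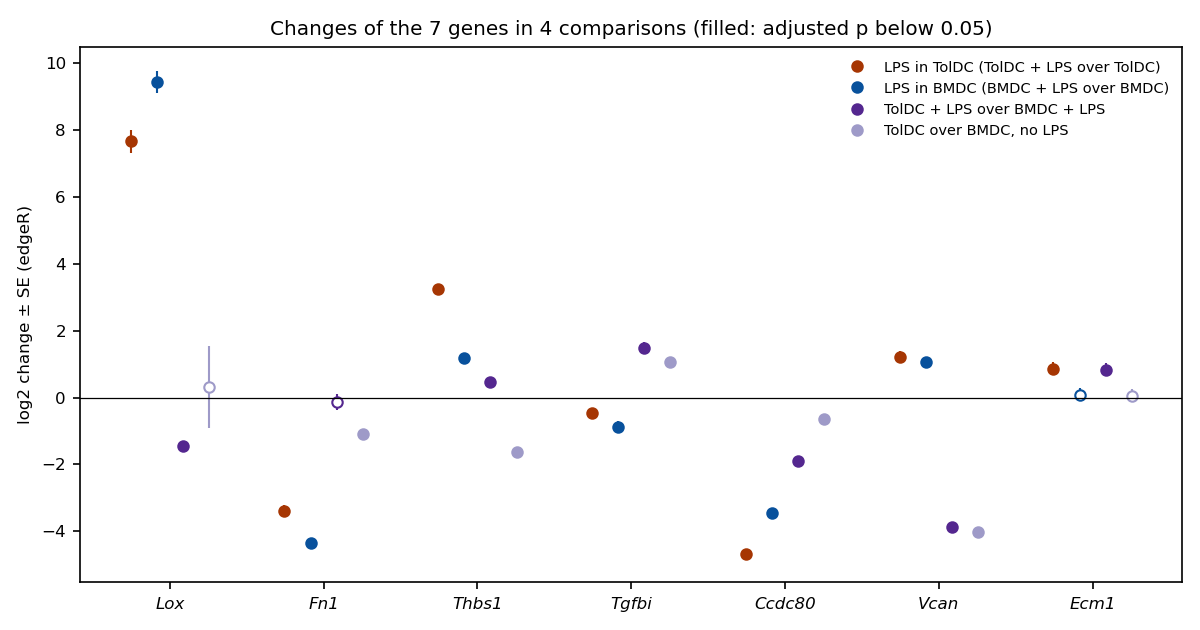
Log2 change of each of the 7 genes in 4 comparisons, with SE bars from edgeR, filled where the adjusted p is below 0.05. Lox has the largest rises with LPS, at 7.66 in TolDC and 9.44 in BMDC, and Vcan the largest differences between the kinds of cell, at −3.88 with LPS and −4.03 without.

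**Figure D4:**
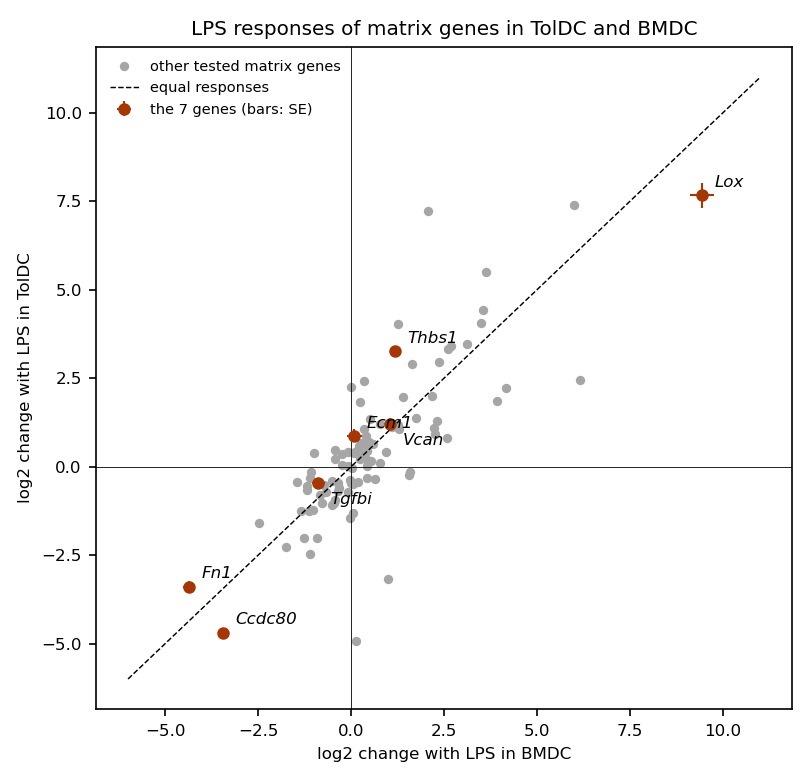
Log2 change with LPS in TolDC (vertical) against that in BMDC (horizontal) for the 7 genes, with SE bars, and for the other tested genes of 6 lists of matrix genes in grey, with a dashed line of equal responses. Thbs1 lies 2.09 above the line and Ccdc80 1.25 below it, while Vcan is close to it.

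The other genes that make, modify or bind the matrix were counted from 6 lists, and the shares of all genes called in each direction are those given above. Among 15 tested genes of collagen processing and cross-linking other than Lox, LPS raised 10 and lowered 2 in TolDC, and raised 11 and lowered 2 in BMDC, with medians of 0.80 and 0.77 on the log2 scale. P4ha2, a subunit of the enzyme that hydroxylates proline in collagen, rose by 4.17 ± 0.36 in BMDC (edgeR adjusted p = 3.75e-09), to 1.37 ± 0.257 CPM in BMDC + LPS, against 0.0748 ± 0.0380 CPM in BMDC (SD, n = 3 each). It also rose in TolDC, by 2.209 ± 0.221 (edgeR adjusted p = 4.14e-08), to 2.323 ± 0.1042 CPM in TolDC + LPS, against 0.5014 ± 0.03828 CPM in TolDC. Adamts14, a protease that trims procollagen, rose by 3.32 ± 0.27 in TolDC (1.93e-09), to 2.99 ± 0.666 CPM in TolDC + LPS, against 0.299 ± 0.131 CPM in TolDC. In BMDC it rose by 2.595 ± 0.249 (2.09e-08), to 2.880 ± 0.3611 CPM in BMDC + LPS, against 0.4692 ± 0.04502 CPM in BMDC. Its difference between the LPS responses was not called (edgeR adjusted p = 0.17). Tgm2, a transglutaminase that cross-links proteins including fibronectin, was at 5739 ± 277 CPM in TolDC and 1370 ± 78.5 CPM in BMDC, a log2 difference of 2.07 ± 0.053 (4.29e-16). Between TolDC and BMDC this list was split, with 6 higher and 5 lower of the 15 with LPS, and 6 higher and 4 lower without.

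Of 13 tested collagen genes, TolDC held 4 higher and 8 lower than BMDC with LPS, and 3 higher and 8 lower without, with medians of −0.82 and −0.68. LPS raised 6 and lowered 4 in TolDC, and raised 4 and lowered 4 in BMDC. Col5a1, a chain of collagen V, rose in both kinds of cell. It was at 22.2 ± 0.980 CPM in TolDC + LPS and 2.00 ± 0.184 CPM in TolDC (log2 3.46 ± 0.12, edgeR adjusted p = 4.25e-15), and at 9.30 ± 0.106 CPM in BMDC + LPS and 1.06 ± 0.346 CPM in BMDC (3.11 ± 0.14, 2.55e-13; SD, n = 3 each). Col27a1, a fibrillar collagen of cartilage, reached 4.29 ± 0.447 CPM in TolDC + LPS, against 0.0896 ± 0.101 CPM in TolDC, and 8.13 ± 0.266 CPM in BMDC + LPS, against 0.661 ± 0.124 CPM in BMDC. Col23a1, a membrane-bound collagen, was lower in TolDC, at 2.63 ± 0.180 CPM against 8.71 ± 0.668 CPM in BMDC (log2 −1.72 ± 0.12, 2.6e-10).

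Of 27 tested matrix glycoproteins other than the members, LPS raised 9 and lowered 11 in TolDC, and raised 8 and lowered 10 in BMDC, with medians of −0.14 and −0.03. Agrn, agrin, which organises synapses and basement membranes, was at 55.8 ± 1.56 CPM in TolDC + LPS and 15.4 ± 0.870 CPM in TolDC, and at 232 ± 7.87 CPM in BMDC + LPS and 15.3 ± 1.22 CPM in BMDC (SD, n = 3 each). Its LPS response was lower in TolDC by a log2 difference of −2.07 ± 0.079 (edgeR adjusted p = 9.24e-13) where that of Thbs1 was higher. Igfbp4, which binds insulin-like growth factors, was at 5.75 ± 0.342 CPM in TolDC + LPS and 52.3 ± 0.624 CPM in TolDC, and at 13.9 ± 2.52 CPM in BMDC + LPS and 6.95 ± 1.47 CPM in BMDC, a difference between responses of −4.18 ± 0.20 (7.83e-09). Thbs4, a relative of Thbs1, was at 0.0855 ± 0.0333 CPM in TolDC + LPS and 3.76 ± 1.05 CPM in BMDC + LPS (log2 −5.34 ± 0.38, 4.06e-10). Lamc3, a laminin chain, was at least 37.1-fold higher in TolDC + LPS, with 155 counts, than in BMDC + LPS, with 0 counts, taking a floor of 3 counts over the group.

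Of 9 tested proteoglycan and hyaluronan genes other than Vcan, LPS raised 4 and lowered 1 in TolDC, and raised 3 and lowered 1 in BMDC, with medians of 0.21 and 0.17. Srgn, serglycin, the proteoglycan of leukocyte granules, was at 2599 ± 255 CPM in TolDC + LPS and 1012 ± 27.8 CPM in TolDC, and at 2688 ± 296 CPM in BMDC + LPS and 803 ± 20.02 CPM in BMDC (SD, n = 3 each). Its log2 difference between TolDC + LPS and BMDC + LPS was −0.05 ± 0.076 (edgeR adjusted p = 0.589), against −3.88 for Vcan. Of 8 tested ADAMTS and ADAMTS-like genes, TolDC held 5 higher and 1 lower with LPS, and 3 higher and 2 lower without, with medians of 0.39 and 0.03. The list includes versican-cleaving proteases, and also the ADAMTS-like Adamtsl4 and Adamtsl5, so these counts are not of proteases alone. Adamtsl5 was among the higher genes in both conditions, and Adamtsl4 among the lower ones without LPS. Adamts9, a versican-cleaving member, was at 4.60 ± 0.188 CPM in TolDC + LPS and 0.705 ± 0.377 CPM in BMDC + LPS (log2 2.66 ± 0.23, edgeR adjusted p = 8.9e-09), and at 3.49 ± 0.419 CPM in TolDC and 0.384 ± 0.0909 CPM in BMDC (3.19 ± 0.27, 6.5e-09). Adamts20 had 344 counts in TolDC + LPS and 366 in TolDC and 0 in both BMDC groups, at least 82.4-fold higher in TolDC + LPS and 128.8-fold higher in TolDC at a floor of 3 counts over the group. Adamts4, which also cleaves versican, went the other way with LPS, at 0.830 ± 0.0496 CPM in TolDC + LPS and 2.14 ± 0.247 CPM in BMDC + LPS (log2 −1.37 ± 0.19, edgeR adjusted p = 4.36e-06), and without LPS its log2 difference was −0.05 ± 0.29 (0.92).

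Of 21 tested matrix receptors, LPS raised 11 and lowered 8 in TolDC, and raised 9 and lowered 6 in BMDC, while TolDC held 6 higher and 10 lower with LPS, and 8 higher and 7 lower without. The medians were 0.15 for LPS in TolDC and 0.23 for LPS in BMDC. Itga1, the alpha chain of a collagen-binding integrin, was at 121 ± 6.93 CPM in TolDC and 30.3 ± 1.48 CPM in BMDC (SD, n = 3 each; log2 1.99 ± 0.060, edgeR adjusted p = 3.35e-15). Itga4, the alpha 4 chain, which binds an alternatively spliced stretch of fibronectin, was at 10.7 ± 1.30 CPM in TolDC + LPS and 59.9 ± 2.36 CPM in BMDC + LPS (−2.48 ± 0.072, 1.23e-15). Gene counts do not show which splice forms of Fn1 or Vcan were made. Sdc1, syndecan 1, a cell-surface heparan sulfate proteoglycan, was at 164 ± 9.83 CPM in TolDC + LPS and 46.2 ± 0.891 CPM in TolDC, and at 34.0 ± 2.86 CPM in BMDC + LPS and 29.2 ± 2.02 CPM in BMDC. Its LPS response was larger in TolDC by 1.60 ± 0.087 on the log2 scale (1.57e-10).

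Among themselves, the 7 genes formed no single pattern over the 12 libraries, which share the 4 groups and so are not independent points. Pearson correlations of log2 CPM ran between −0.963 for Lox with Fn1 and 0.951 for Fn1 with Ccdc80, and Tgfbi with Vcan gave −0.939; they are a description only. By the same measure over 9832 other genes of at least 5 CPM in some group, the genes closest to Vcan were Batf3 (0.999), Nectin2 (0.996) and Ramp3 (0.996). Batf3, a transcription factor of dendritic cells, averaged 64.3 CPM in TolDC + LPS, 49.8 CPM in TolDC, 167 CPM in BMDC + LPS and 123 CPM in BMDC. Those closest to Thbs1 were Hvcn1 (0.992), Hamp (0.987) and Cybb (0.986). Hamp, which encodes the iron hormone hepcidin, averaged 162 CPM in TolDC + LPS, 0.532 CPM in TolDC, 129.9 CPM in BMDC + LPS and 6.74 CPM in BMDC. Lox was closest to Ifi204 (0.997), Wdr59 (0.996) and Gtpbp2 (0.995), Fn1 to Btk (0.996), Acaa2 (0.995) and Wdfy4 (0.994), and Ccdc80 to Evl (0.996), Hpse (0.996) and Fbp1 (0.995). Hpse encodes heparanase, an enzyme that cleaves the heparan sulfate chains of matrix proteoglycans. Tgfbi was closest to Ccdc88c (0.979), Rps10 (0.979) and Tars2 (0.978), and the genes close to Ecm1 included Ccdc107 (0.966) and Sirpa (0.944).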

How the data were processed

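The deposited tables hold raw counts per gene for 12 libraries, and the counts were not normalized. Per the submitters' processing notes, reads were handled with cutadapt and STAR on mouse genome mm10 (GRCm38), and edgeR and limma are also named, with no versions. Libraries were made from total RNA with a stranded mRNA kit, per the labels. Column 4 (reverse strand), whose total was 35.2 to 37.3 times that of column 3, was used. Between 79.3% and 80.6% of the reads in a table were assigned to genes, and reads that matched several places (9.34% to 9.85%) were not counted. Of 31054 gene identifiers, 31011 matched GENCODE M21, which gave symbols, positions and merged exon lengths. Genes that overlap Fn1, Thbs1 and Vcan on the opposite strand reached at most 1, 44 and 27 counts in a library. CPM are counts divided by the TMM-scaled library total.

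Genes were filtered with filterByExpr and scaled with TMM factors (0.945 to 1.04). A quasi-likelihood model with robust dispersions and a mean per group was fitted to all 12 libraries (edgeR 4.0.16, R 4.3.3), with a biological coefficient of variation of 0.0572. P-values were adjusted by Benjamini-Hochberg over the 13141 genes tested and called below 0.05. The script was tested on simulated data. Correlations used log2 CPM with a prior count of 2. Intervals and floors from counts cover counting error only. Promoters are from RefSeq (GRCm38.p6), where 3 of the 7 genes matched. The members, gene lists, markers and tests were chosen with earlier results of these data known. Besides the 7 genes, the rule named, for each list and comparison, up to 2 called genes of at least 1 CPM with the largest change, and the 3 genes most correlated with each member. Some genes it selects are not reported here. Partner genes were chosen for their known role. Library numbers were not used as pairs. Alternatives were column 2, RLE size factors, no filter on low counts, DESeq2 1.42.0, limma-voom (limma 3.58.1), only the groups compared, the library number as a block, leaving out each library, and leaving out the 4 libraries numbered 1.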

Additional observations from a re-analysis of the deposited data

Results flagged for a closer look

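The LPS responses of 4 of the 7 genes differed between TolDC and BMDC in edgeR's quasi-likelihood test of the difference itself (TolDC minus BMDC, log2). The difference was 2.09 for Thbs1, which rose more in TolDC, 0.97 for Fn1, which fell less in TolDC, −1.25 for Ccdc80, which fell more in TolDC, and 0.79 for Ecm1, which rose in TolDC and did not pass the test in BMDC. The adjusted p-values were 1.74e-09, 0.00762, 6.63e-06 and 0.043. Over 19 alternatives the value stayed between 1.98 and 2.15 for Thbs1, between 0.78 and 1.25 for Fn1, and between −1.37 and −1.04 for Ccdc80, and each kept its call. For Ecm1 it stayed between 0.59 and 0.91 and the call was lost in 7 of 19.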

How the results depend on the processing

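Calls of genes over the whole table stayed within 1.5 times in every comparison under every alternative that was run. Without the filter on low counts, the called genes among the proteoglycan and hyaluronan list were 10 in place of 5 for LPS in BMDC and 1 in place of 2 for the difference between responses. More genes entered the test in that setting, and what made these counts differ was not tested. The Ecm1 difference between responses was 0.82 there (edgeR adjusted p = 0.0596). With only the groups compared in the fit, Tgfbi for LPS in TolDC was −0.47 (0.0714). Without the 4 libraries numbered 1, LPS in BMDC gave Ecm1 0.19, now called, and the difference between responses gave Lox −3.29 and Tgfbi 0.41, both now called, and 7 called collagens in place of 3, while Fn1 in TolDC + LPS over BMDC + LPS turned to 0.18 without a call. The cause of these changes was not tested. Leaving out 1 library at a time, Ecm1 ranged from −0.04 to 0.27 for LPS in BMDC, from −0.06 to 0.19 for TolDC over BMDC and from 0.59 to 0.91 for the difference between responses, and Fn1 from −0.32 to 0.07 for TolDC + LPS over BMDC + LPS. Lox ranged from −0.15 to 1.82 for TolDC over BMDC and from −3.28 to −1.32 for the difference between responses, and Tgfbi from −0.58 to −0.31 for LPS in TolDC and from 0.27 to 0.58 for the difference between responses. The call for the Ecm1 difference was lost without library 2 or 3 of BMDC, 1 or 2 of TolDC, or 2 or 3 of TolDC + LPS, and the Tgfbi difference was called without TolDC + LPS library 1 (0.58, edgeR adjusted p = 0.00419). Few unstimulated counts limit every value of Lox that rests on TolDC or BMDC.

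The library numbers were not treated as pairs. Deviations from group means correlated between 0.091 and 0.466 over 18 same-numbered pairs, 1 of them below 0.1, and 10 of 12 libraries correlated best with their own number. Differently numbered pairs from different groups correlated between −0.372 and 0.202. With the replicate block, called genes numbered 9776 in place of 9370 for LPS in TolDC, 9969 in place of 9614 for LPS in BMDC and 6543 in place of 5834 for the difference between responses, and no call of the 7 genes changed.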
